A study of Mus musculus with 2 samples.

Results

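The genes described here are 10 long noncoding RNA genes of the mouse, of 55536 genes in the main table and 13374 genes annotated there as long noncoding. They were named by hand as 8 hosts of small nucleolar RNAs (snoRNAs), Gas5, Snhg1, Snhg3, Snhg5, Snhg6, Snhg8, Snhg12 and Zfas1, and 2 RNAs that stay in the nucleus, Malat1 and Neat1. All 10 were found in the table by symbol. The libraries hold polyadenylated RNA, read from both fragment ends, of G1E-ER4 cells. This erythroid line of the mouse was made from Gata1-null cells, and in it an estradiol-activated fusion protein brings GATA1 function back. Every sample had received 17beta-estradiol at 10 nM over 24 h, so the series had 1 group with 2 libraries, replicates 1 and 2 of the labels, and no untreated cells were analysed here. Both libraries carry 1 biosample record, and no label tells whether separate cultures were used, so their spread may be technical. The values are levels in treated cells, the line is an immortalized model rather than primary erythroid tissue, and no test between conditions was possible.

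A snoRNA host gene is transcribed as a precursor whose introns hold snoRNAs. Splicing frees the intron, the snoRNA is trimmed out of it and guides chemical modification or processing of ribosomal RNA, and the joined exons remain as a long noncoding RNA. Many such spliced RNAs begin with a run of pyrimidines, as ribosomal protein mRNAs do, and several, Gas5 above all, are degraded by nonsense-mediated decay when ribosomes read their short open frames. Malat1 collects in nuclear speckles, where splicing factors are stored. Neat1 is the scaffold of paraspeckles, nuclear bodies built on its long form, while its short form ends early at a polyadenylation signal. The 3′ ends of Malat1 and of long Neat1 are cut by RNase P and lack a poly(A) tail, so that an internal A-rich tract takes part in protecting them.

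The snoRNAs are what the host introns carry, and 1 is shown for each host as GENCODE M21 transcripts give it on GRCm38 (mm10), 5′ to 3′ with T for U. Capitals mark box C (TGATGA, searched in the first 25 bases) and box D (CTGA, in the last 15 bases) of C/D snoRNAs, which guide 2′-O-methylation, or the ACA of the pattern ACANNN at the 3′ end of H/ACA snoRNAs, which guide pseudouridylation except where noted.
Snord47 in Gas5 (chr1:161038082-161038158, plus strand): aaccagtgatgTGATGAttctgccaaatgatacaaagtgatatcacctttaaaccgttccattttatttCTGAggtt
Snord22 in Snhg1 (chr19:8725866-8725991, plus strand): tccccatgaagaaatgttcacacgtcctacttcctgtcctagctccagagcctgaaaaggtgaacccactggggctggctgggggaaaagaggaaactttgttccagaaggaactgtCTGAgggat
Snora73a in Snhg3 (chr4:132352775-132352979, minus strand): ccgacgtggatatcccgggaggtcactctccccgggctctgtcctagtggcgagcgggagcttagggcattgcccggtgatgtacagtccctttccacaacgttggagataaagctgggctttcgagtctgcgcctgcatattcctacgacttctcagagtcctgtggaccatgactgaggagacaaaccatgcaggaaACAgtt
Snord50a in Snhg5 (chr9:88521529-88521600, minus strand): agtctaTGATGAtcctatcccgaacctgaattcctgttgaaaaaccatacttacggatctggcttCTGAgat
Snord87 in Snhg6 (chr1:9942463-9942549, minus strand): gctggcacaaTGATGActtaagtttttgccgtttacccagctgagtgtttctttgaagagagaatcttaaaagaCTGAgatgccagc
Snora24 in Snhg8 (chr3:123507937-123508066, minus strand): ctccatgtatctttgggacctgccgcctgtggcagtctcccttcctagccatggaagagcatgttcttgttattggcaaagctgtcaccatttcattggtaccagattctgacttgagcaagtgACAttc
Snora61 in Snhg12 (chr4:132310240-132310369, plus strand): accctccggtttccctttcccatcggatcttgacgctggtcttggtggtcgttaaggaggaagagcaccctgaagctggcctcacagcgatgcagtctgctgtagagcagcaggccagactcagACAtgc
Snord12 in Zfas1 (chr2:167065276-167065365, plus strand): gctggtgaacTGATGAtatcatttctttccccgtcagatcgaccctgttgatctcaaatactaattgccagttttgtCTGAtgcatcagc
Snord22 had no exact TGATGA in that window, and Snora73a, also called U17, acts in ribosomal RNA processing rather than in modification. Of all 1507 snoRNA transcripts of the annotation, 20.3% had both box C and box D in these windows, 31.4% had box D there and 18.3% ended in ACANNN, on the RNA strand alone. These matches are descriptions of the letters.

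Transcription starts of the members in RefSeq (GRCm38.p6) are shown where they hold an unbroken run of at least 6 C or T letters between 10 bases before and 20 bases after the start, with the run in capitals and the window reaching 30 bases past the start, on the strand of the gene.
Gas5, its downstream start (chr1:161035156-161035195, plus strand): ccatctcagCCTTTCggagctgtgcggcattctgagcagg
Snhg1 (chr19:8723477-8723516, plus strand): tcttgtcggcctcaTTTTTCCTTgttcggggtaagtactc
Snhg5 (chr9:88522868-88522907, minus strand): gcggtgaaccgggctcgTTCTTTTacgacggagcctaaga
Snhg8 (chr3:123508307-123508346, minus strand): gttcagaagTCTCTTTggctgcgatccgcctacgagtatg
Snhg12 (chr4:132308668-132308707, plus strand): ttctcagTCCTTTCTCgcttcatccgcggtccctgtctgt
Of 9 starts listed for 8 members, 5 starts of 5 members held such a run, against 28.7% of all 32851 starts in the table. The starts of Snhg3, Zfas1, Malat1 and the upstream start of Gas5 had none. No entry was found for Snhg6 and Neat1. Leading transcripts did not all begin at the starts shown. Snhg8-201 and Snhg1-211 begin 68 and 12 bases upstream, and so before the run. Snhg12-205 and Snhg12-206 begin at the start. Snhg5-201 and Snhg5-204 begin 7 and 9 bases after it, and Snhg1-209 and Snhg5-205 begin 653 and 1028 bases after it. The downstream start of Gas5 lies 3 bases inside the 5′ end of transcript Gas5-224, the transcript with the most exons among those leading for Gas5, while Gas5-217 begins 6 bases after the upstream start.

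The ends of Malat1 and Neat1 are shown because polyadenylated RNA was read, and these ends are made in different ways. Capitals mark the A-rich motif AAAGCAAAA in Malat1-201 and in the long form Neat1-201, and the polyadenylation signal AATAAA in the short form Neat1-202, in M21 transcripts on GRCm38.
Malat1-201 (chr19:5795982-5796060, minus strand): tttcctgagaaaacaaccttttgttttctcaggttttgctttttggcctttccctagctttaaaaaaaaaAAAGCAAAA
Neat1-201 (chr19:5824708-5824767, minus strand): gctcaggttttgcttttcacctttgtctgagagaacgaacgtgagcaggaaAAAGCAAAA
Neat1-202 (chr19:5842307-5842366, minus strand): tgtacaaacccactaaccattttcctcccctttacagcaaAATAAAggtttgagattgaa
The A-rich motif occurred 1 time in Malat1-201, 1 time in Neat1-201, at its very end, and 0 times in Neat1-202. It was found in 2.87% of 18930 long noncoding transcripts at any position. The tract of Malat1-201 lies 292 bases before the annotated end of that transcript, which itself holds AATAAA in its last 40 bases. AATAAA ended 14 bases before the end of Neat1-202, and 28.6% of long noncoding transcripts held it in their last 40 bases.

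The libraries differed in depth by 5.06 times, with 71485617 expected counts in replicate 1 and 14121747 in replicate 2, and a count of 0 allows up to 0.0420 and 0.212 CPM, counts scaled to the library total. The median fragment length was 153 and 131 bases, and microRNA entries took 21.2% and 73.2% of TPM in the authors' table made from reads, against 0.00994% and 0.0805% in the table made from alignments. All 10 erythroid markers were detected, and 0 of 12 markers of other blood, endothelial and stromal cells were, the highest being 0.55 TPM by alignment. From reads 0 of 12 reached 1 TPM in both libraries, with Pecam1 at 0.770 and 2.86 TPM. In bulk RNA, fewer cells that hold an RNA and less of it per cell cannot be told apart.

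Of the 10 members, 7 reached 1 TPM (a level scaled for transcript length and for the library total) in both libraries, the threshold used here for detection. The same threshold was met by 13.8% of all genes and by 1.56% of long noncoding genes. Snhg3, Snhg5 and Snhg6 did not reach it. Several detected hosts rested on few fragments in the shallow library, with 7 expected counts for Gas5, 10 for Snhg8 and 14 for Snhg1 in replicate 2.

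**Figure D1:**
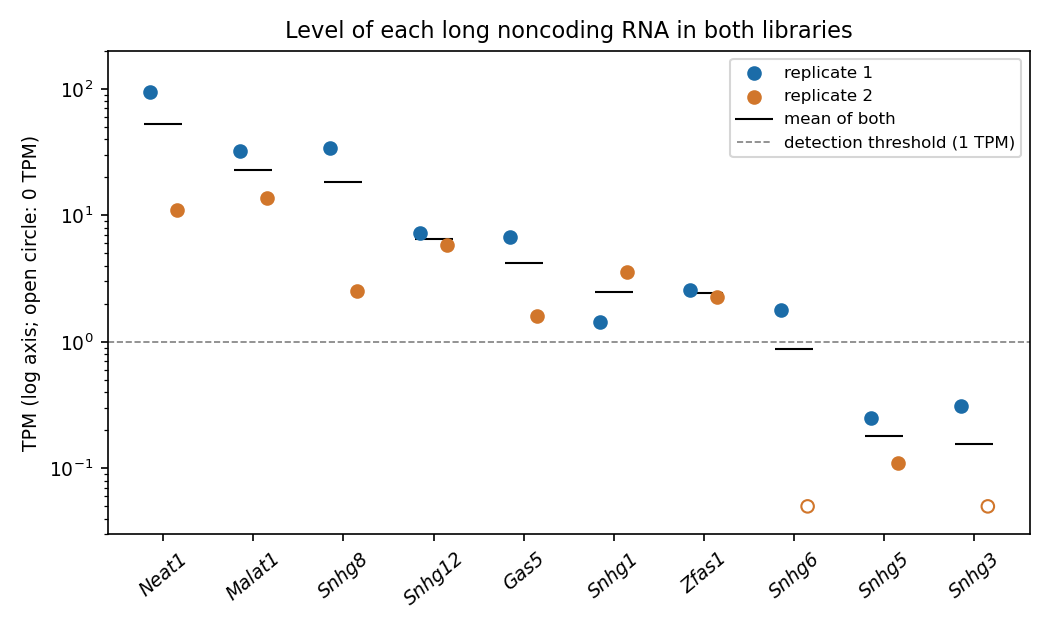
Level of each of the 10 genes in TPM on a log axis, ordered by the mean of both libraries (black bar), with 1 point per library, an open circle where the value is 0, and the detection threshold of 1 TPM as a dashed line. Neat1, Malat1 and Snhg8 lead at means of 53.1, 23.0 and 18.4 TPM, and replicate 2 lies below replicate 1 for every gene except Snhg1.

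Neat1 (ENSMUSG00000092274.3, chromosome 19, 5824708 to 5845478, minus strand) had the highest mean level of the members, at 95.1 TPM in replicate 1, with 11.1 TPM in replicate 2, or 53.1 ± 59.4 TPM (SD, n = 2). These values rested on 24290 and 724 expected counts. Neat1 was rank 17 among the 13374 long noncoding genes by mean TPM. It was high in replicate 1, while in replicate 2 it lay below Malat1.

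Malat1 (ENSMUSG00000092341.3, chromosome 19, 5795690 to 5802672, minus strand), the speckle RNA, was at 32.4 TPM in replicate 1, with 13.6 TPM in replicate 2, or 23.0 ± 13.2 TPM (SD, n = 2), on 15081 and 414 expected counts. Neat1 TPM over Malat1 TPM gave 2.94 in replicate 1 but 0.814 in replicate 2, and 3.25 and 0.663 in the table made from reads. Which of the 2 nuclear RNAs had the higher gene TPM therefore differed between the libraries in both tables. In replicate 2, however, 9.46 of the 13.6 TPM of Malat1 by alignment fell to the short transcript Malat1-204, on 61.5 counts. Malat1-201 was at 4.17 TPM there. Of the 11.1 TPM of Neat1 in replicate 2, Neat1-202 had 4.79 and Neat1-201 had 1.99 TPM. The short transcript Neat1-203 had 4.31 TPM, on 47.9 counts. In expected counts, without length, Neat1 stood above Malat1 in both libraries, at 24290 and 724. From reads Malat1-204 had 4.93 of the 7.06 TPM of Malat1 in replicate 2, on 278 counts. How far the order in TPM depends on the split of reads between transcripts was not tested.

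Among the hosts, Snhg8 (ENSMUSG00000104960.1, chromosome 3, 123507552 to 123508404, minus strand), which carries the H/ACA snoRNA Snora24, had the highest mean, from 34.2 TPM in replicate 1 and only 2.54 in replicate 2, on 829 and 10 expected counts. Its mean was 18.4 ± 22.4 TPM (SD, n = 2). In replicate 1 Snhg8 stood above Malat1, and in replicate 2 it stood below Snhg12 and Snhg1 as well.

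Snhg12 (ENSMUSG00000086290.9, chromosome 4, 132308623 to 132311024, plus strand), host of Snora16a, Snora44, Snora61 and Snord99, was at 7.24 TPM in replicate 1, with 5.83 TPM in replicate 2, or 6.54 ± 0.997 TPM (SD, n = 2). Zfas1 (ENSMUSG00000074578.13, chromosome 2, 167062934 to 167065862, plus strand), which hosts Snord12 and runs antisense to the start of Znfx1, was at 2.58 and 2.28 TPM in replicates 1 and 2, or 2.43 ± 0.212 TPM (SD, n = 2). These hosts had 263 and 107 expected counts in replicate 1 and 58 and 17.2 in replicate 2. Their TPM ratios between libraries were 1.24 and 1.13 in this table. With M4 Snhg12 was at 16.4 and 6.82 TPM, and from reads it was at 4.48 and 1.496 TPM and Zfas1 at 2.59 and 0.979 TPM, so the closeness did not hold there.

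Gas5 (ENSMUSG00000053332.13, chromosome 1, 161034422 to 161038539, plus strand), an RNA first found in growth-arrested cells, with 10 annotated snoRNA entries inside it of which 2 overlap as Snord80, was at 6.75 TPM in replicate 1, with 1.61 TPM in replicate 2, or 4.18 ± 3.63 TPM (SD, n = 2), on 205 and 7 expected counts. Snhg1 (ENSMUSG00000108414.1, chromosome 19, 8723475 to 8726443, plus strand), the host of Snord22, was at 1.43 and 3.55 TPM in replicates 1 and 2, or 2.49 ± 1.499 TPM (SD, n = 2), on 56 and 14 expected counts. By alignment TPM Snhg1 alone among the members was higher in replicate 2. From reads it was at 2.30 and 1.98 TPM, the other way round. By posterior mean Snhg3, Snhg5 and Snhg12 were higher in replicate 2 as well. However, the posterior means of Snhg3 and Snhg5 there, 1.29 and 0.88 TPM, stood beside only 0 and 1 counts. Snhg12 differed little, at 7.28 and 7.35 TPM. No higher level in replicate 2 is read from these values.

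The remaining hosts did not reach the detection threshold in both libraries by alignment. Snhg6 (ENSMUSG00000098234.7, chromosome 1, 9941959 to 9944118, minus strand), host of Snord87, was at 1.77 TPM on 82 expected counts in replicate 1 and at 0 TPM on 0 counts in replicate 2, but at 13.6 and 4.79 TPM in the authors' table made from reads. Snhg5 (ENSMUSG00000097195.9, chromosome 9, 88521050 to 88522929, minus strand), host of Snord50a and Snord50b, was at 0.25 and 0.11 TPM in replicates 1 and 2 on 13 and 1 expected counts. Snhg3 (ENSMUSG00000085241.7, chromosome 4, 132348014 to 132353686, minus strand), host of Snora73a and Snora73b, was at 0.31 TPM on 4 counts in replicate 1 and at 0 TPM on 0 counts in replicate 2. The authors' interval for the posterior TPM of Snhg3 in replicate 2 ran from 0.286 to 2.46 TPM, so that absence cannot be told from a low level at this depth.

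In the order of mean TPM, Neat1, Malat1, Snhg8, Snhg12, Gas5, Snhg1, Zfas1, Snhg6, Snhg5 and Snhg3, the values of neighbours overlapped between libraries for every pair except Zfas1 above Snhg6. Members further apart in the order did separate by alignment. Neat1 and Malat1 lay above Snhg12 and every member ranked below it in both libraries, and Snhg12 lay above Snhg1 and Zfas1. From reads Neat1, at 4.68 TPM in replicate 2, lay below Gas5 at 4.71 and Snhg6 at 4.79 TPM. In that table Zfas1 and Snhg6 were the other way round, with Zfas1 at 2.59 and 0.979 TPM and Snhg6 above it in both libraries.

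The ratio of replicate 1 to replicate 2 describes how far the members moved between libraries of the same treatment. Expected counts averaged 50 or more for 6 members. In TPM 4 of these were over 2-fold higher in replicate 1, against 35.4% of the 9029 genes with that count, and 0 were over 2-fold lower, against 15.5%. Among 287 long noncoding genes with that count the shares were 29.3% and 26.5%. With 6 genes, nothing is read from this difference. The 4 were Neat1, Malat1, Snhg8 and Gas5, with TPM ratios of 8.58, 2.37, 13.5 and 4.19, and the median over all genes was 1.34.

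**Figure D2:**
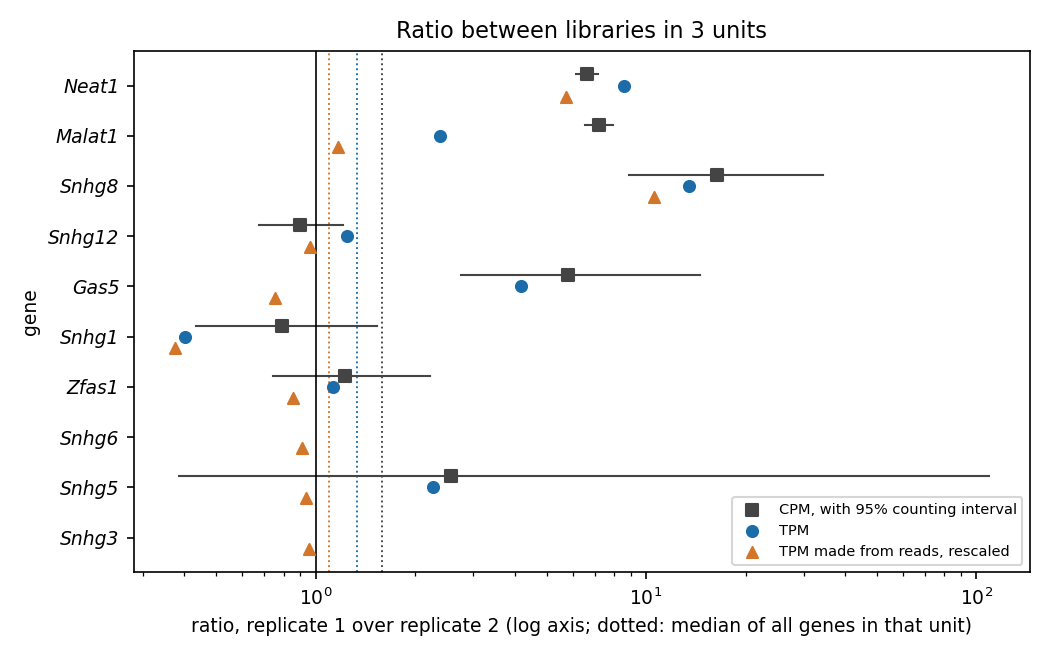
Ratio of replicate 1 over replicate 2 for each gene on a log axis, in CPM with its 95% counting interval, in TPM, and in TPM of the table made from reads after rescaling, with the median of all genes in each unit as a dotted line. Snhg6 and Snhg3 have no CPM or TPM ratio because replicate 2 is at 0. The rescaled ratios of 8 genes run from 0.374 for Snhg1 to 1.17 for Malat1, with Neat1 at 5.72 and Snhg8 at 10.6 apart from them.

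In CPM, without length, the counting intervals of the ratio are known. For Snhg8 it was 16.4 with a 95% exact interval of 8.86 to 34.3, and for Gas5 5.79 with 2.76 to 14.6. Malat1 had 7.20, from 6.53 to 7.95, and Neat1 6.62, from 6.16 to 7.15. Each of these intervals lies above the all-gene median of 1.58. They cover counting error only. The same 4 members were over 2-fold higher in CPM, and 0 were lower, beside 41.3% and 9.67% of all genes.

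Snhg12 had a CPM ratio of 0.896 with an interval of 0.672 to 1.21, which lies below the all-gene median. Zfas1 had 1.23, from 0.741 to 2.21, and Snhg1 had 0.790, from 0.434 to 1.54. Snhg6 had 82 counts in replicate 1 and 0 in replicate 2, and the exact interval of its ratio begins at 4.29. For Snhg3 no fold is given, since its level in replicate 1 lay under the floor of replicate 2. In CPM the hosts therefore did not move as 1 group between the libraries. In the rescaled read-based TPM described below, the ratios of Gas5, Snhg3, Snhg5, Snhg6, Snhg12 and Zfas1 ran from 0.755 to 0.964. Snhg1 and Snhg8 stood apart there, at 0.374 and 10.6.

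The median log2 ratio of TPM + 1 was 0.79 over the 10 members and 0.33 over the 8 hosts, beside 0.32 over all genes with the minimum count and 0.03 over long noncoding genes. Genes differed by GC content too, with median log2 ratios of 0.50, 0.49, 0.52, 0.36 and -0.23 in 5 bins of equal size, given with GC content increasing. The lowest bin held 6 members, the next 3 and the middle bin 1, and the part of GC content in their ratios was not tested. Nor was the part of the differences in depth, fragment length and microRNA share given above.

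The authors' table made from reads gave the low hosts more counts. Gas5 had 646 and 192 read-based counts in replicates 1 and 2, which is 3.15 and 27.4 times its alignment-based counts, where the median gene had 1.41 and 2.53 times. Snhg6 had 534 and 161 read-based counts against 82 and 0 by alignment. Snhg1 had 165 and 113, against 56 and 14. Snhg8 and Snhg12, in contrast, had 1.04 and 1.13 times as many read-based counts in replicate 1.

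With the read-based TPM set to a fixed sum over nuclear protein-coding genes, 3 of 10 members were higher in replicate 1, against 9 of 10 in TPM. The median ratio of replicate 1 over 2, over all genes with the minimum count, was 1.10 after this rescaling and 1.34 in TPM. In the rescaled values Gas5 was at 14.9 and 19.8 TPM in replicates 1 and 2, and Snhg6 at 18.3 and 20.1 TPM. Their difference between libraries was not seen there. Malat1 was at 34.6 and 29.6 TPM. Neat1 kept a difference, at 112 and 19.7 TPM, and Snhg8 did too, at 29.2 and 2.76 TPM. Among the 6 members with the minimum count, these 2 were over 2-fold higher in replicate 1 in that scale, and 0 were over 2-fold lower. Of all genes with that count 21.7% were higher and 14.9% lower. Snhg1, under that count by alignment, was at 3.11 and 8.31 TPM in this scale, a ratio of 0.374.

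Overlapping genes can share reads with the members, as strand use in the counting is not given. Mcmdc2, on the strand opposite Snhg6 with 127 shared bases, had 1 and 0 counts by alignment and 681 and 1718 read-based counts in replicates 1 and 2. Gm27533, an annotated fragment of 152 bases inside Neat1, was at 186 and 1.72 TPM on 188 and 0.53 counts. Rcc1, a protein-coding host that spans Snhg3 on the same strand, was at 15.1 and 3.58 TPM. Reads of Snhg3 and Rcc1 may thus be split uncertainly. These neighbours were named after their values were seen.

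Transcripts of the nuclear RNAs differed between the libraries. The short form Neat1-202, of 3004 bases, was at 90.7 TPM in replicate 1, with 4.79 TPM in replicate 2. The long form Neat1-201, of 20771 bases, was at 3.68 and 1.99 TPM. Thus short exceeded long by 24.6 times in replicate 1 and 2.41 times in replicate 2, and by 30.2 and 5.59 times in the table made from reads. In TPM the short form led in both libraries and both tables. In expected counts, without length, short over long was 3.41 in replicate 1 and 0.336 in replicate 2. Polyadenylated RNA was read and the long form lacks a poly(A) tail. These are thus ratios within the libraries, and the balance of the forms in the cells was not measured.

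A spliced fragment, Neat1-203 of 1030 bases, was at 0.75 TPM in replicate 1, with 4.31 TPM in replicate 2 by alignment and at 0.43 and 0 TPM from reads, so the higher value of replicate 2 was not seen in the other table. Most expected counts of Neat1 fell to the long form in replicate 2, at 69.9%, against 22.6% in replicate 1, but per length the long form had 17.9% and 3.87% of TPM.

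Malat1-201, the unspliced transcript of 6983 bases that holds the A-rich tract shown above, was at 30.3 TPM in replicate 1, with 4.17 TPM in replicate 2. Malat1-204, a transcript of 656 bases that begins 5720 bases downstream of the Malat1 start and whose intron spans the tract, was at 2.04 and 9.46 TPM. It had 69.4% of Malat1 TPM in replicate 2, on 61.5 counts, and 6.31% in replicate 1. In the table made from reads it had 69.8% in replicate 2 and 0.151% in replicate 1. In counts, Malat1-201 led in both libraries, at 99.5% and 85.1%.

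**Figure D3:**
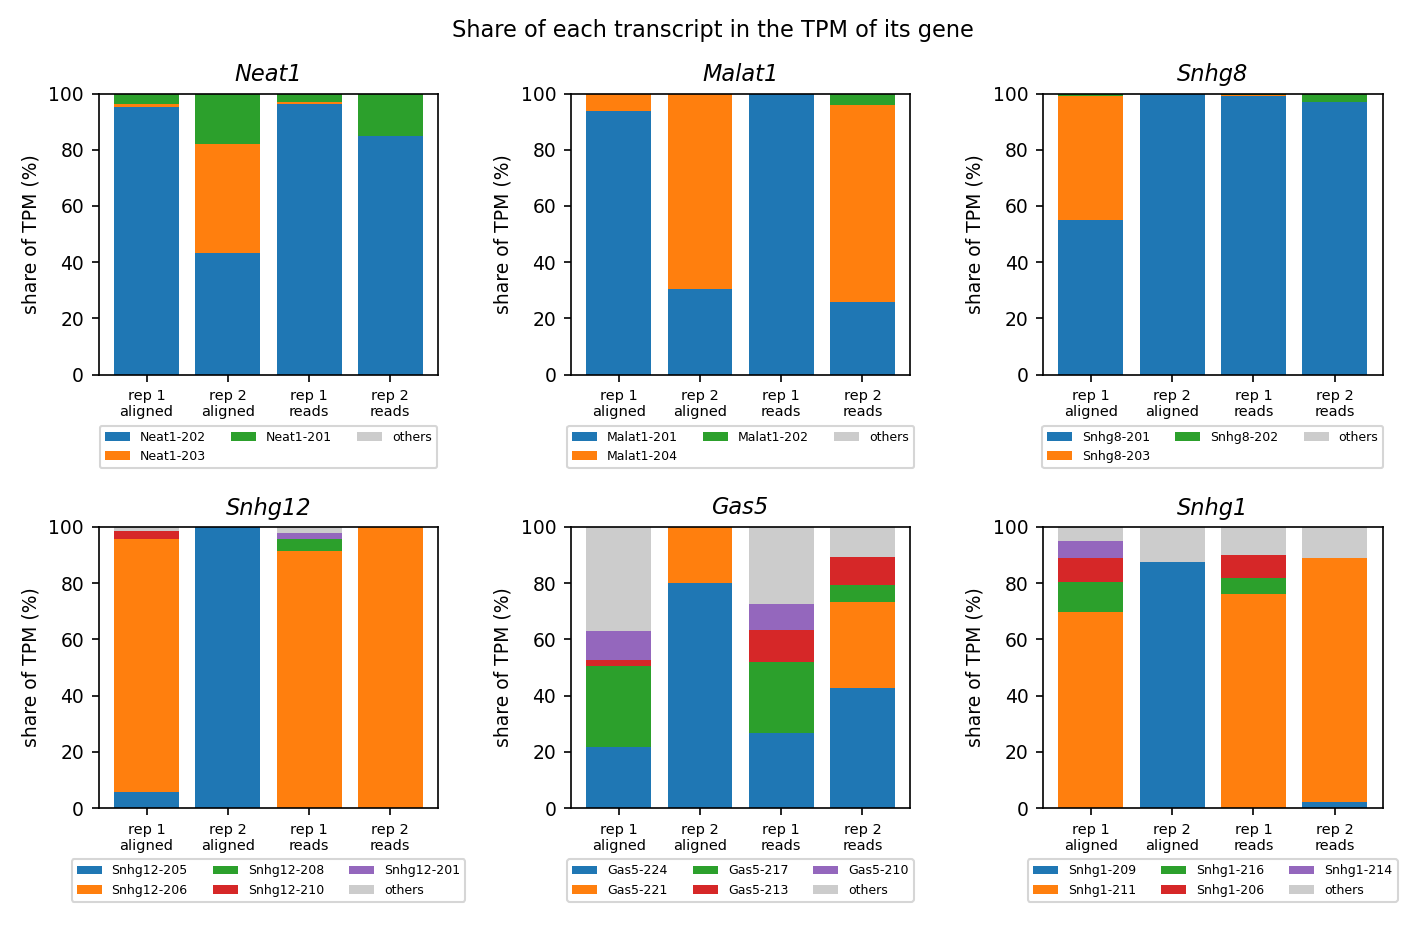
Share of each transcript in the TPM of its gene for 6 genes, in replicates 1 and 2 of the table made from alignments (aligned) and of the table made from reads (reads), with the 5 largest transcripts in colour and the others in grey. The alignment-based and read-based bars of replicate 2 have different leading transcripts for Snhg12 and Snhg1, and in both tables Malat1-201 leads in replicate 1 and Malat1-204 in replicate 2.

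Over all members, the leading transcript was the same in both libraries for 4 of 10 members by alignment and for 8 of 10 from reads. By alignment Snhg3 and Snhg6 had 0 TPM in replicate 2, so no leading transcript there, and counted as not the same. Snhg8-201 led Snhg8 in both libraries by alignment, at 18.8 and 2.54 TPM. Snhg8-203, which keeps the last intron, was however at 15.03 TPM in replicate 1 and 0 in replicate 2. From reads Snhg8-203 had 0.409% of Snhg8 TPM in replicate 1. The split of Snhg8 between these transcripts is thus uncertain.

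Snhg12-206, the transcript of 606 bases with the snoRNA introns removed, was at 6.53 TPM in replicate 1, with 0 TPM in replicate 2, while Snhg12-205, of 935 bases, was at 0.41 and 5.83 TPM. Snhg12-205 keeps the intron that holds Snord99. From reads Snhg12-206 led with 91.4% and 100% of TPM, and Snhg12-205 had 0 in both. The difference by alignment was not seen there.

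**Figure D4:**
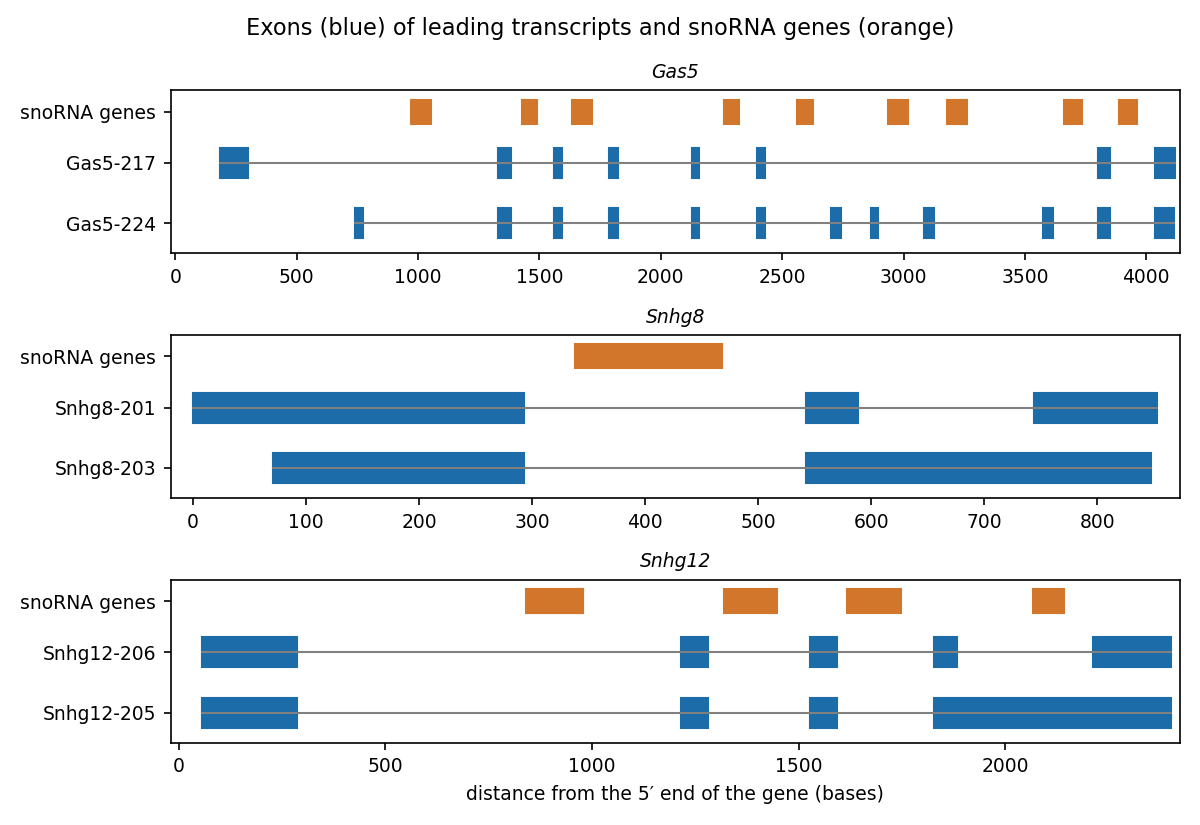
Exons of leading transcripts (blue) and annotated snoRNA genes (orange) of Gas5, Snhg8 and Snhg12 by distance in bases from the 5′ end of the gene. Each snoRNA gene lies between exons of Gas5-217, Gas5-224, Snhg8-201, Snhg8-203 and Snhg12-206, while the last exon of Snhg12-205 covers the snoRNA gene nearest the 3′ end.

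For Gas5, whose annotation has 25 transcripts, Gas5-217 led in replicate 1 with 29.0% and Gas5-224 in replicate 2 with 80.1% of TPM, the second on 5.92 counts. Gas5-224 led from reads, with 26.9% and 42.7%. Among its retained_intron transcripts Gas5-219, whose exon holds Snord78, had 0.43 TPM in replicate 1 and Gas5-221 had 0.32 TPM in replicate 2. Snhg1-211 led Snhg1 in replicate 1 with 69.9% by alignment, and from reads with 76.2% and 86.8%. In replicate 2 by alignment the retained_intron transcript Snhg1-209, of 312 bases, had 3.11 TPM on 7 counts.

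Zfas1-205 led Zfas1 in both libraries, with 71.8% and 100% of TPM, and its highest retained_intron transcript Zfas1-201, whose exon holds Snord12, was at 0.42 and 0 TPM. Snhg6-205 led Snhg6 in replicate 1 by alignment with 93.8%, whereas from reads Snhg6-204 led with 78.2% and 68.9%. Snhg5-204, which keeps Snord50a, led Snhg5 at 0.12 and 0.11 TPM, and Snhg3-205 was the one Snhg3 transcript with counts by alignment. Snhg8-202, which keeps Snora24, was at 0.34 and 0 TPM.

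Over the 5 members with retained_intron transcripts (Gas5, Snhg1, Snhg5, Snhg8 and Zfas1), these took 8.45% of TPM in replicate 1 and 37.3% in replicate 2. From reads the shares were 12.4% and 34.0%, and by posterior mean TPM 10.9% and 55.3%. The posterior mean gives a share to transcripts without counts as well. Gas5-225, with 0 counts in both libraries, had 1.22% of Gas5 in replicate 1 and 5.70% in replicate 2. Nothing further is therefore read from the posterior mean here. By alignment and from reads the pooled share was higher in replicate 2, but single members did not all go that way. By alignment it was 27.97% in replicate 1 and 93.8% in replicate 2 for Snhg1, where Snhg1-209 on 7 counts made up 3.11 TPM in replicate 2. Gas5 had 32.4% in replicate 1 and 19.9% in replicate 2, and Zfas1 had 28.2% and 0%. From reads Snhg1 had 23.8% and 12.8%, and Gas5 had 30.6% and 48.9%. Snhg8, with 0.994% of its own TPM in this class in replicate 1, gave the pool 34.2 TPM there and 2.54 TPM in replicate 2. The share of TPM in transcripts with a whole snoRNA in an exon, a measure chosen after the values were seen, was 24.9% and 0% for Gas5 and 9.81% and 100% for Snhg12 by alignment. From reads it was 19.2% and 8.28% for Gas5 and 8.61% and 0% for Snhg12, and by posterior mean 28.3% and 42.8% for Gas5 and 12.1% and 62.9% for Snhg12. The direction thus depends on the estimate for both genes, though for Gas5 only through the posterior mean.

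The annotation places 32 snoRNA genes inside the members on the same strand, 60 to 205 bases long, where the labels give a size range above 175 for the libraries. By alignment 30 of them had 0 counts in both libraries. Snora73a and Snora73b, both inside Snhg3, had 3 and 2 counts in replicate 1 and 0 in replicate 2, under 1 TPM, and are named here after their values were seen. Of all 1507 snoRNA genes 13 had counts, or 0.863%. From reads 2 of the 32 reached 1 TPM in a library, both with 0 counts by alignment and named after their values were seen. Gm22357, inside Gas5, was at 2.78 and 0 TPM on 6.98 and 0 counts, and Snora61 of Snhg12, whose sequence is shown above, was at 1.98 and 0.640 TPM on 8.94 and 3 counts.

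Among 10 other long noncoding hosts found, 3 were detected. Snhg10 was at 20.9 TPM in replicate 1, with 33.6 TPM in replicate 2, Snhg20 at 21.9 and 4.56 TPM, and Epb41l4aos at 21.4 and 2.98 TPM. By mean TPM, Snhg10 at 27.2 stood above every member except Neat1, but in replicate 1 it lay below Malat1 and Snhg8 as well. From reads Snhg10 was at 20.4 and 10.8 TPM in replicates 1 and 2, the other way round.

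All 21 protein-coding hosts were detected, with a median of 471 TPM in replicate 1 against 68.6 in replicate 2. The highest were Rpsa, at 5752 and 4101 TPM, and Rpl13a, at 3477 and 5814 TPM, ribosomal protein genes, and the lowest was Eif4a2, a translation initiation helicase gene, at 1.33 and 2.40 TPM. Between libraries 12 of them were over 2-fold higher and 4 lower in replicate 1, beside 35.4% and 15.5% of all genes with the minimum count. Both medians lay above the TPM of every one of the 8 long noncoding hosts described here in the same library.

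Proteins of snoRNPs (snoRNA with its proteins) or of their assembly were detected in most cases. Of box C/D proteins 3 of 4 were, among them the methyltransferase Fbl at 142 and 70.1 TPM, Nop56 at 16.1 and 31.5 TPM and Snu13 at 30.5 and 4.74 TPM. Of H/ACA proteins 5 of 6 were, counting the assembly factors Naf1 at 9.22 and 29.7 TPM and Shq1 at 6.79 and 10.2 TPM. Nhp2 was too, at 53.4 and 37.2 TPM. The pseudouridine synthase Dkc1 was not, at 1.35 and 0.15 TPM, and Nop58 was not, at 28.8 and 0.81 TPM. From reads both were above 1 TPM in both libraries, Dkc1 at 2.93 and 4.76 TPM and Nop58 at 35.1 and 2.29 TPM. Nop58 and Dkc1 were named after their values were seen.

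Factors of nonsense-mediated decay, known to degrade spliced hosts such as Gas5, were detected in 8 of 10 cases, with Upf1 at 101 and 129 TPM, Smg1 at 19.1 and 87.2 TPM and Smg8 at 3.41 and 3.30 TPM. The exceptions, named after their values were seen, were Upf2 at 3.35 and 0.05 TPM and Upf3b at 6.19 and 0.04 TPM. Paraspeckle proteins, which bind Neat1, were detected in 7 of 7, with Sfpq at 203 and 941 TPM, Hnrnpk at 770 and 139 TPM and Pspc1 at 10.5 and 4.47 TPM. Sfpq was thus higher in replicate 2 while Neat1 was higher in replicate 1. Other long noncoding RNAs were detected in 2 of 11 cases, Tug1 at 21.3 and 35.3 TPM and Dancr at 1.60 and 2.74 TPM.

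The long noncoding genes most like Neat1 over both libraries, by Euclidean distance in log2(TPM + 1), were Gm28037 at 140 and 5.44 TPM, Cct6a, annotated as a processed transcript, at 43.1 and 9.66 TPM, and 2310009A05Rik at 43.6 and 5.53 TPM, at distances of 1.06, 1.14 and 1.42. With 2 libraries, these name genes of similar level and no more.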

How the data were processed

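The members and gene lists were chosen with earlier results of these data known. The authors quantified mm10 reads for GENCODE M21 and M4 from transcriptome alignments and, for M21, also from reads, per the labels. Names of tools and use of strand are not stated in these sources. Expected counts, as deposited, are estimated fragments without normalization. TPM, per the file headers, has a fixed total in each library, and the interval bounds of the posterior TPM have no stated level. The authors' percent column holds a transcript's share of its gene, while shares here were taken from TPM. M21 alignment-based gene TPM was the main table.

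CPM, ratios, SDs and exact 95% binomial intervals of CPM ratios were computed here. Intervals and floors, of 3 counts, cover counting error only. A pseudocount of 1 was used on the log2 scale, and ratio calls needed a mean expected count of 50 and a 2-fold difference. Counting of calls was tested on simulated data. Genes named are the 10 members, of each companion list the 2 highest detected and the lowest detected, snoRNAs at 1 TPM or more (none by alignment), leading and highest retained_intron transcripts, and the 3 genes nearest the highest member. Alternatives were M4, where 8 of 10 members matched, the table made from reads, posterior means, rescaled TPM, CPM, edgeR TMM and DESeq2 size factors on expected counts, other thresholds and pseudocounts, and each library alone. Not found were Snhg4, Snhg7, Snhg16 and Oip5os1. Tools were edgeR 4.0.16 and DESeq2 1.42.0 in R 4.3.3, and matplotlib 3.10.9, scipy 1.17.1, numpy 2.4.6 and pandas 2.3.3 in Python 3.11.15.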

Additional observations from a re-analysis of the deposited data

How the results depend on the processing

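No paired analysis was possible because the series has 1 group. The number of detected members was 7, and with thresholds of 5 and 10 TPM it fell to 3 and 2. In the table made from reads it was 6, and 9 after rescaling it over nuclear protein-coding genes, an alternative added after seeing the data. It ran from 7 to 8 with either library alone. Of 10 ranks, 4 were kept in the table made from reads and 2 after its rescaling, and 0 to 3 with either library alone. The median log2 ratio of 0.79 became -0.045 in the rescaled table and 1.62 with a pseudocount of 0.1, and the number over 2-fold apart, 4, became 2 in the rescaled table. There the log2 ratio of Gas5 reversed to -0.38. The share of genes over 2-fold apart, 50.9%, was 7.54% without a filter on counts. The leading transcript was shared between libraries for 4 members, for 8 in the table made from reads and for 1 with M4. Members without a leading transcript in a library counted as not shared, so these numbers are not of equal sets. They were Snhg3 and Snhg6 by alignment, and with M4 also Snhg1 and Snhg8, which were not matched there. The share of retained_intron transcripts, 22.9% as the mean of both libraries, ran from 8.45% to 37.3% with either library alone. For single members, 37 log2 ratios, 15 mean levels and 7 leading shares moved by more than 1 SD, and 60, 53 and 31 did not. For a log2 ratio the SD was set as its absolute value over the square root of 2, so ratios near 0 moved on small shifts. The leading shares of Snhg3 and Snhg6 had a value in 1 library only, so any change in them counted as moved. The causes were not tested. A ratio without a library cannot be formed. The depth of replicate 2 limits the members with few counts there.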
